A study of Mus musculus with 6 samples.

Results

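The chemokine system was described in 6 tumours of HM1, a mouse ovarian cancer cell line, through 61 genes of chemokines and chemokine receptors among the 57462 genes listed. A gene was a member if its name began with Ccl, Cxcl, Ccr, Cxcr or Ackr and a digit, or was Cx3cl1, Cx3cr1 or Xcl1, and 3 pseudogenes that matched were left out. For 3 tumours the implanted line expressed a control hairpin RNA (shControl, genotype labelled wild type), and in the other 3 a hairpin against the sialyltransferase ST3GAL3 (shST3GAL3, labelled ST3GAL3 knockdown). All were whole tumours of an early tumour model, so host cells, which do not carry the hairpin, contributed RNA, and St3gal3 in the shST3GAL3 tumours stood at 54.5% of the control mean. Mouse strain, host age and the hairpin sequence, and whether the HM1 cells were a pool or a clone, were not given in the sources used here.

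Chemokines are small secreted proteins that guide leukocytes through receptors coupled to G proteins, and they are named CC, CXC, XC or CX3C by the spacing of their leading cysteines. Many receptors bind several ligands, and many ligands bind several receptors. The atypical receptors (Ackr genes) bind chemokines without the usual G protein signal and take them up or transport them. In tumours the ligands of Cxcr3 are known as interferon-induced attractants of T and NK cells, Ccl2 as an attractant of monocytes, and Cxcl12 as a product of fibroblasts.

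Levels are given in TPM, a measure of abundance per gene length and relative to the library total. Read numbers cannot be had from it, so sequencing depth is unknown. The number of genes at or over 1 TPM ranged from 13930 to 14762. Fold changes and their standard errors (SE) are on the log2(TPM + 1) scale from limma, which understates the change of low genes, and p-values were adjusted over all 14207 genes tested by the Benjamini-Hochberg method. The labels do not say that each tumour is from its own mouse. The p-values therefore speak only of the spread among these samples, and that spread may be technical. For a single gene an exact permutation test of 3 against 3 cannot go below p = 0.1. Values in a sentence run shControl 1, 2 and 3 and then shST3GAL3 1, 2 and 3. In whole tumours, fewer cells of a type and less RNA per cell cannot be told apart.

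Of the HM1 markers, the keratin genes Krt8, Krt18 and Krt19 were abundant in every library, while Epcam stayed at or below 1.17 TPM and Muc16 was listed at 0 in all 6. The summed TPM of 8 epithelial tumour markers ranged from 3209 to 3690 in shControl and from 1781 to 3213 in shST3GAL3 tumours, lowest in shST3GAL3 1. That sum was mostly the keratins, which with Msln were lowest in shST3GAL3 1, whereas Cdh1, Wt1 and Epcam were highest there. Of the 6 markers tested, 3 had a positive log2 fold change. The library shST3GAL3 1 also stood apart in its stromal markers. The summed TPM of 8 fibroblast markers was 807, 692 and 1104 in shControl 1, 2 and 3 and 6528, 1873 and 1284 in shST3GAL3 1, 2 and 3, and 7 of the 8 had no overlap between groups, with shST3GAL3 higher. The 5 pan-leukocyte markers (Ptprc, Laptm5, Coro1a, Cd52 and Cd53) summed to between 553 and 631 TPM in shControl and to 1144, 881 and 661 TPM in shST3GAL3 1, 2 and 3. The part of these markers in the results that follow was not tested.

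Of the 61 genes, 44 reached 1 TPM in at least 3 libraries and were tested. Most of these had higher means in the shST3GAL3 tumours, and 0 passed the test over all genes in either direction (limma, smallest adjusted p = 0.380). Over all genes tested, the share called was 0.00704%. Of the 44, 40 had a positive log2 fold change, against 52.7% of all genes tested, and the count was 36 to 39 under 3 other scalings of the libraries. The median over the 44 was 0.60, against 0.01 over all genes tested. At an unadjusted p under 0.05, 11 of the 44 were higher (25%), where the background is 9.19%, and 0 were lower, where it is 3.78%. For 13 members the lowest shST3GAL3 value exceeded the highest shControl value (29.5%, background 15.7%), and for 1 member, Cxcl17, all lay below (2.27%, background 7.76%). These counts describe the tested genes and are not independent evidence, since the family was chosen with earlier results known. Ackr1 passed the filter only through its shST3GAL3 values and so had to differ.

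The 3 shST3GAL3 tumours were unequal. Of the 44 genes, 33 had their highest value of the 6 libraries in shST3GAL3 1 and 7 in shST3GAL3 2, while shST3GAL3 3 held the highest value of 0. Over all genes tested, 28.7% had their highest value in shST3GAL3 1. The median difference from the shControl mean was 1.09, 0.45 and 0.15 on the log2(TPM + 1) scale in shST3GAL3 1, 2 and 3, against 0.05, -0.05 and 0.01 in shControl 1, 2 and 3. Without shST3GAL3 1 the median log2 fold change of the 44 was 0.29 and 35 were positive. The count of 11 higher at an unadjusted p under 0.05 was 10 without shST3GAL3 1, of which 9 were among the 11. It was 4 without shControl 2 and 21 without shST3GAL3 3. In these 3 fits the share over all genes was 8.54%, 4.41% and 12.7%, so the background moved too. In the same fits 2, 0 and 1 members were lower, where 444, 303 and 776 of the 14207 genes were.

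**Figure D1:**
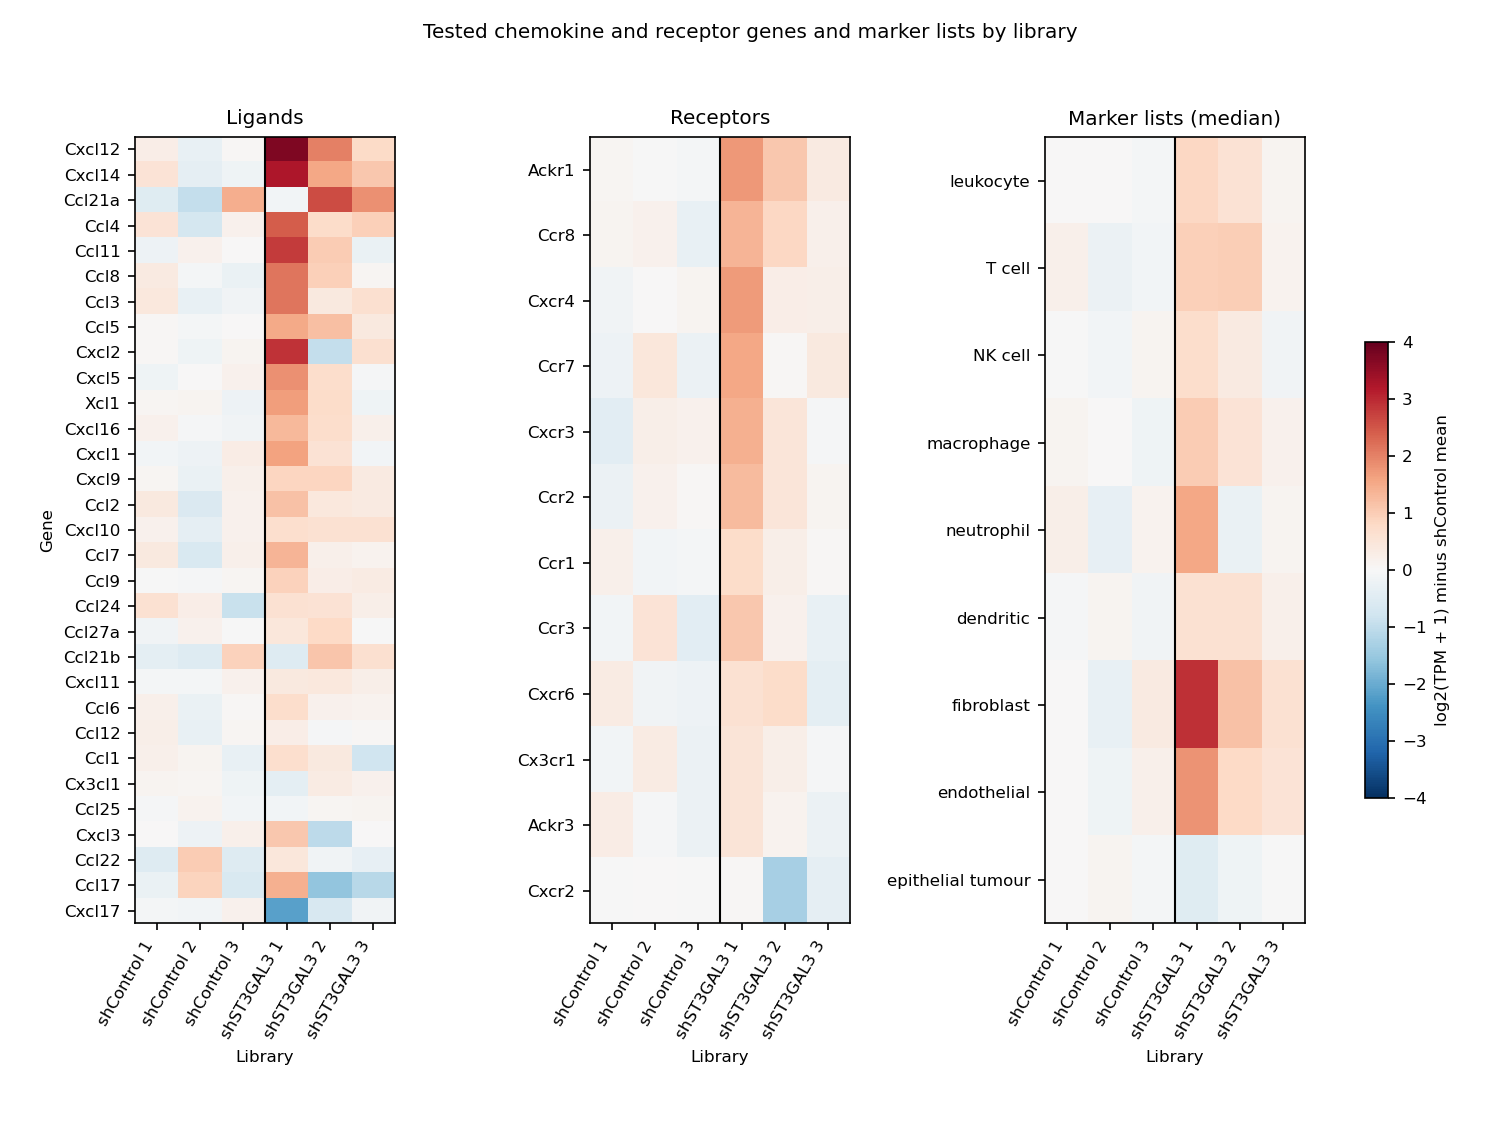
Differences from the shControl mean on the log2(TPM + 1) scale for tested ligands and receptors (rows) in the 6 libraries (columns), with the medians of 9 marker lists. The column of shST3GAL3 1 is the darkest for most members and for the fibroblast list, and shST3GAL3 3 lies close to the shControl columns.

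The ligands were far more abundant than the receptors. Summed over the 39 ligand genes, the level was 2832, 2157 and 2121 TPM in shControl 1, 2 and 3 and 5398, 3278 and 2696 TPM in shST3GAL3 1, 2 and 3. The sum over the 22 receptor genes was 136, 131 and 119 TPM in shControl 1, 2 and 3 and 262, 159 and 132 TPM in shST3GAL3 1, 2 and 3. In each sum the groups were close at shControl 1 and shST3GAL3 3, overlapping for both kinds. A few genes made up most of either sum. The 5 most abundant ligands of each library held between 60.1% and 69.6% of the ligand sum, and Ccl24, Ccl6, Ccl8 and Ccl2 were among them in all 6. Ccr1 was the leading receptor by mean in both groups, and Ackr3 and Cxcr4 were among the next most abundant. By mean, Ccl8 was at place 3 of the ligands in shControl and at place 1 in shST3GAL3 tumours, although it led only in shST3GAL3 1 and Ccl24 led in shST3GAL3 2 and 3. Cxcl12 was at place 22 and then 16.

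The ligands of Cxcr3 exceeded every control value in the 3 shST3GAL3 tumours, although none passed the test. Cxcr3 is the receptor of activated T and NK cells, and Cxcl9, Cxcl10 and Cxcl11 are its interferon-induced ligands. By a naming rule, RefSeq promoters are shown for the ligands of Cxcr3, where the sequence table held them, and for 2 members with the smallest p. These are the ligand gene Cxcl10, itself a ligand of Cxcr3, and the receptor gene Ackr1. The p of Ackr1 is no evidence of a difference, since the gene passed the filter only through its shST3GAL3 values. The sequences are on build GRCm38.p6, while the submitters' processing notes name GRCm39, and each runs 5′ to 3′ from 250 bases before to 50 bases after the annotated start. Capitals mark matches on either strand to the interferon-stimulated response element (GAAA, any 2 bases, GAAA), the gamma-activated site TTCNNNGAA, the NF-kB consensus or the TATA box TATAAA. Cxcl11 has no entry.
Cxcl9 (chr5:92328030-92328329, minus strand): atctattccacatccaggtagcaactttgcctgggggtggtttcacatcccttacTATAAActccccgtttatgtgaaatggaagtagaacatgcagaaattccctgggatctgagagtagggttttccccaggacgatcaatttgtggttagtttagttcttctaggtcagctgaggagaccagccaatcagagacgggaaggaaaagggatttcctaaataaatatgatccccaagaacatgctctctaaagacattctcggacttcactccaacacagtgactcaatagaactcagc
Cxcl10 (chr5:92348840-92349139, minus strand): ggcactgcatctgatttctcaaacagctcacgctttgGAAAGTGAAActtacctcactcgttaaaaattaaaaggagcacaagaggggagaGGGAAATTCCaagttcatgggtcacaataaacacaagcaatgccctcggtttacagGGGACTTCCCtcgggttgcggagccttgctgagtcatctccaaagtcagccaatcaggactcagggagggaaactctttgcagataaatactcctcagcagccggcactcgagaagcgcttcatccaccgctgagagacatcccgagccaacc
Ackr1 (chr1:173333454-173333753, minus strand): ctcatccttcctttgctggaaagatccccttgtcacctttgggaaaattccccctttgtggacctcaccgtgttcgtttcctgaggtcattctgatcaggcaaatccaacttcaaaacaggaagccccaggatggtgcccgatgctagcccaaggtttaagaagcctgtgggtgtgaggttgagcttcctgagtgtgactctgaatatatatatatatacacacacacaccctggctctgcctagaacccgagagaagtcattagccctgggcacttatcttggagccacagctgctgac

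The Cxcl10 window held 1 interferon-stimulated response element, GAAAGTGAAA, starting at -213 from the start site, and 2 NF-kB matches, GGGAAATTCC at -159 and GGGACTTCCC at -103, with no overlap between them. The Cxcl9 window held a TATAAA at -195, and the Ackr1 window held none of the 4 motifs. Of 32851 promoters in the table, 3.44% held the interferon element, 8.3% the gamma-activated site, 4.51% the NF-kB consensus and 13.6% the TATA box. The table held promoters for 46 of the 61 genes. Among these the interferon element was in 3 (Ccl19, Cxcl10 and Cxcl14), the gamma-activated site in 4 (Ccl17, Ccr1l1, Ccr6 and Cxcl14), the NF-kB consensus in 10 and the TATA box in 14. The 10 with the NF-kB consensus included Cxcl1, Cxcl2, Cxcl3 and Ccl9. A match is a description of the letters and not of binding.

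Cxcl10 stood at 111.67, 76.94 and 110.71 TPM in the controls and at 155.87, 152.14 and 152.18 TPM in shST3GAL3 tumours. All 3 shST3GAL3 values lay above the control range and within a few TPM of each other, and the log2 fold change was 0.64 (SE 0.15, limma, adjusted p = 0.380), with the smallest unadjusted p of the family. Cxcl9 stood at 99.61, 77.80 and 108.34 TPM and then at 170.85, 171.10 and 122.16 TPM. Its groups did not overlap either, and its log2 fold change was 0.69 (SE 0.18). Cxcl11 was far lower, at 2.02, 2.08 and 2.59 TPM and then 3.26, 3.35 and 2.79 TPM, again without overlap (0.36, SE 0.15). Together the 3 ligands summed to 197 ± 35.3 TPM in shControl and 311 ± 29.6 TPM in shST3GAL3 tumours (SD, n = 3 each), 1.58 times the control mean. The receptor Cxcr3 stood at 1.26, 2.54 and 2.38 TPM and then at 7.01, 3.17 and 1.90 TPM. Its groups overlapped, with shST3GAL3 3 below shControl 2 and 3, and the log2 fold change was 0.61 (SE 0.39). Thus the ligands lay above the control range in all 3 tumours and the receptor in shST3GAL3 1 and 2. The 8 T cell markers summed to between 58.8 and 81.5 TPM in shControl and to 148, 142 and 72.9 TPM in shST3GAL3 1, 2 and 3, with none at 0 in any library and 2 of the 8 without overlap. The 4 NK cell markers summed to between 18.0 and 21.6 TPM in shControl and to 28.0, 27.9 and 15.5 TPM in shST3GAL3 1, 2 and 3. All 4 overlapped between groups, and 3 had a positive log2 fold change while that of Eomes was negative (-0.22, SE 0.15). The part of either list in the Cxcr3 values was not tested.

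Of the inflammatory ligands Ccl5, Ccl4 and Ccl3, which attract T cells and macrophages, the first pair did not overlap between groups. Ccl5, a ligand made by T and NK cells and macrophages, stood at 55.62, 51.69 and 55.18 TPM in the controls and at 156.56, 125.25 and 71.96 TPM in shST3GAL3 tumours. The controls were nearly equal and all 3 shST3GAL3 values were above them (log2 fold change 1.04, SE 0.26, limma, adjusted p = 0.380). Ccl4 stood at 24.63, 9.71 and 18.91 TPM and then at 92.61, 28.44 and 32.91 TPM, without overlap (1.37, SE 0.50). Ccl3 stood at 26.06, 15.53 and 17.31 TPM and then at 87.97, 25.59 and 30.20 TPM. For Ccl3, shST3GAL3 2 lay just inside the control range, and the log2 fold change was 1.06 (SE 0.46). Both Ccl3 and Ccl4, macrophage inflammatory proteins whose genes lie near each other, were highest in shST3GAL3 1. The 8 macrophage markers summed to 1306, 1247 and 1096 TPM in shControl and to 2314, 1776 and 1302 TPM in shST3GAL3 1, 2 and 3, with none at 0 and 4 of 8 without overlap, and their part in these values was not tested.

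Ccr1, a receptor of monocytes, macrophages and neutrophils, was the most abundant receptor. It stood at 37.66, 30.47 and 30.96 TPM in the controls and at 54.95, 38.82 and 34.12 TPM in shST3GAL3 tumours, with shST3GAL3 3 inside the control range (log2 fold change 0.34, SE 0.18). Its ligand Ccl6, a myeloid chemokine found in rodents, stood at 440.47, 321.45 and 398.17 TPM and then at 626.75, 430.82 and 427.42 TPM, with overlap (0.34, SE 0.18). Ccl9, of the same kind, stood at 85.62, 83.74 and 91.88 TPM and then at 166.73, 105.40 and 108.59 TPM, without overlap (0.51, SE 0.18). With Ccl3, Ccl5 and Ccl7 included, the ligands of Ccr1 summed to 608 ± 89.1 TPM in shControl and 881 ± 267 TPM in shST3GAL3 tumours (SD, n = 3 each). That sum did not overlap, while the receptor did.

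Ccr2 brings monocytes from blood into tissue. It stood at 6.04, 8.31 and 7.57 TPM in the controls and at 18.82, 10.43 and 7.86 TPM in shST3GAL3 tumours, with shST3GAL3 3 inside the control range (log2 fold change 0.61, SE 0.30). Its main ligand Ccl2 stood at 254.39, 127.87 and 217.82 TPM and then at 434.91, 260.28 and 245.49 TPM. Here shST3GAL3 3 was just below shControl 1, and the log2 fold change was 0.65 (SE 0.31). Ccl7 stood at 76.73, 37.75 and 66.33 TPM and then at 150.09, 67.35 and 63.61 TPM, high in shST3GAL3 1 alone (0.57, SE 0.39). Ccl12 was near even, at 143.05, 98.04 and 128.51 TPM and then 148.09, 118.08 and 126.71 TPM. Its log2 fold change of 0.10 (SE 0.16) turned to -0.06 without shControl 2 and to -0.02 with library weights, so no direction can be given. The 3 monocyte markers (Ly6c2, Plac8 and Chil3) summed to 158, 135 and 234 TPM in shControl and to 460, 265 and 242 TPM in shST3GAL3 1, 2 and 3, with none at 0 and Plac8 without overlap. Their part in these values was not tested.

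Ccr8 and its mouse ligand Ccl8 had higher means in shST3GAL3 tumours, most of all in shST3GAL3 1. Ccr8 is known from regulatory T cells in tumours. It stood at 1.13, 1.22 and 0.61 TPM in the controls and at 4.09, 2.52 and 1.26 TPM in shST3GAL3 tumours. The groups did not overlap, although shST3GAL3 3 and shControl 2 were close, and the log2 fold change was 0.80 (SE 0.32). Ccl8 stood at 422.04, 310.14 and 275.60 TPM and then at 1455.75, 647.26 and 347.86 TPM, the highest value of any chemokine being that of shST3GAL3 1. With shST3GAL3 3 inside the control range its log2 fold change was 1.06 (SE 0.49). Ccl1, the other ligand, stood at 3.31, 3.12 and 2.05 TPM and then at 5.07, 3.93 and 1.17 TPM (0.09, SE 0.39). Its sign turned with quantile normalization and without shControl 3, shST3GAL3 1 or shST3GAL3 2, so it has no stated direction.

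The largest log2 fold changes were those of 2 ligands of stromal cells. Cxcl12, a ligand of Cxcr4 that fibroblasts and endothelial cells make, stood at 8.46, 5.37 and 7.18 TPM in the controls and at 104.65, 30.60 and 12.57 TPM in shST3GAL3 tumours. All 3 shST3GAL3 values were above the controls but differed widely among themselves, and the log2 fold change was 2.17 (SE 0.68, limma, adjusted p = 0.380). Cxcl14, an epithelial and fibroblast chemokine to which no receptor was assigned here, stood at 32.12, 16.59 and 19.37 TPM and then at 214.84, 65.56 and 47.51 TPM, without overlap (1.96, SE 0.55). Ccl11, or eotaxin, stood at 9.05, 11.84 and 10.69 TPM and then at 78.46, 22.00 and 8.54 TPM. In shST3GAL3 3 it was below all controls, so its log2 fold change of 1.18 (SE 0.70) rests on the other two tumours. The summed fibroblast markers given above stood in the same order over the shST3GAL3 tumours as these 3 ligands. So did the leukocyte, T cell, monocyte, macrophage and endothelial sums, though not the neutrophil sum, so the order was not particular to fibroblasts. Per 1000 TPM of the fibroblast sum, a division chosen after the data were seen, Cxcl12 stood at 10.5, 7.76 and 6.50 in shControl 1, 2 and 3. It stood at 16.0, 16.3 and 9.79 in shST3GAL3 1, 2 and 3, and the groups overlapped. Cxcl14 on that scale stood at 39.8, 24.0 and 17.5 and then at 32.9, 35.0 and 37.0, and Ccl11 at 11.2, 17.1 and 9.68 and then at 12.0, 11.8 and 6.65, both with overlap.

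Cxcr4, the receptor of Cxcl12 on leukocytes and many other cells, stood at 12.08, 13.45 and 14.52 TPM in the controls and at 45.78, 16.23 and 15.76 TPM in shST3GAL3 tumours. The groups did not overlap, but shST3GAL3 2 and 3 were within a few TPM of the controls (log2 fold change 0.73, SE 0.39). Ackr3, an atypical receptor that takes up Cxcl12 and Cxcl11, stood at 31.46, 24.66 and 21.76 TPM and then at 37.19, 28.48 and 21.79 TPM. Its groups overlapped, and its log2 fold change of 0.15 (SE 0.22) turned to -0.04 without shST3GAL3 1. Cxcl12 therefore exceeded Ackr3 in TPM in shST3GAL3 1 and 2 and was below it in the other 4 libraries.

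Ackr1, which venules use to carry inflammatory chemokines across the vessel wall, stood at 0.66, 0.56 and 0.50 TPM in the controls and at 4.25, 2.29 and 1.00 TPM in shST3GAL3 tumours. Its log2 fold change was 1.05 (SE 0.35), with the filter passed only through the shST3GAL3 values. The 6 endothelial markers summed to 55.8, 41.7 and 56.3 TPM in shControl and to 200.5, 91.1 and 79.5 TPM in shST3GAL3 1, 2 and 3, with none at 0 and no overlap for any of the 6. The 4 erythroid markers, which are of interest because red cells also carry Ackr1, summed to between 121 and 163 TPM in shControl and to 318, 265 and 184 TPM in shST3GAL3 1, 2 and 3. The part of either list in the Ackr1 values was not tested. Ackr2, a scavenger of inflammatory CC chemokines, did not pass the filter. It stood at 0.15, 0.13 and 0.16 TPM and then at 0.46, 0.99 and 2.33 TPM, and unlike most of the family it was highest in shST3GAL3 3. Ackr4, which takes up Ccl19, Ccl21 and Ccl25, ranged from 0.08 to 0.21 TPM.

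**Figure D2:**
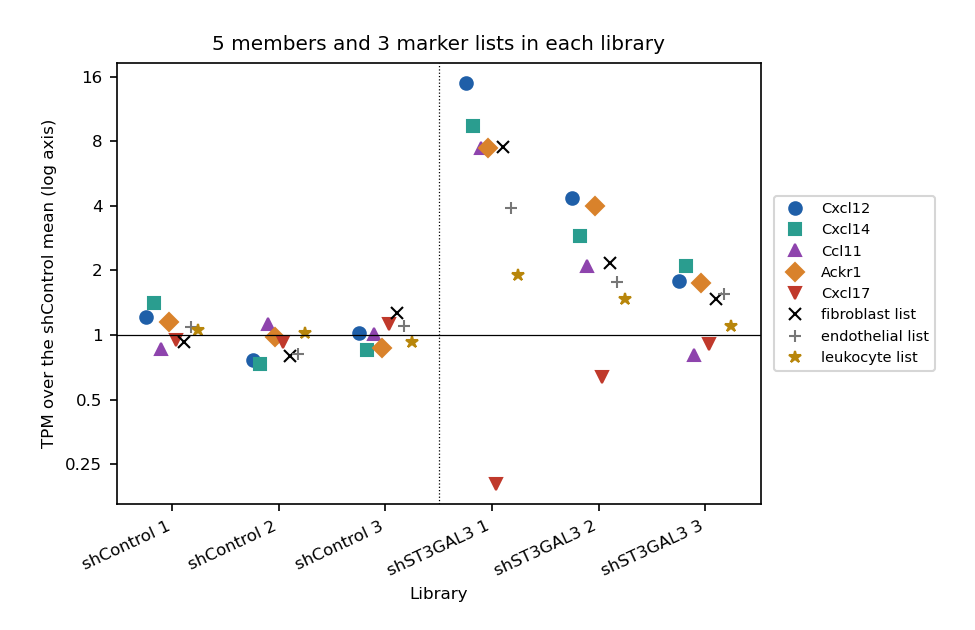
TPM over the shControl mean (log axis) in each library for Cxcl12, Cxcl14, Ccl11, Ackr1 and Cxcl17 and for the summed fibroblast, endothelial and leukocyte lists. Cxcl12 and the fibroblast list are highest in shST3GAL3 1 (104.65 and 6528 TPM), where Cxcl17 is lowest (8.25 TPM).

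Cxcl17, a mucosal chemokine of epithelia, was the only tested member with all shST3GAL3 values below the controls. It stood at 38.85, 37.72 and 45.78 TPM in the controls and at 8.25, 25.90 and 37.09 TPM in shST3GAL3 tumours. In shST3GAL3 3 it was just below shControl 2, and the log2 fold change was -0.98 (SE 0.49, limma, adjusted p = 0.409). The keratin gene Krt19 stood at 939.78, 1070.25 and 884.94 TPM and then at 384.42, 714.74 and 826.78 TPM, also without overlap. Of the 8 epithelial tumour markers, Krt19 was the only 1 whose shST3GAL3 values were all below the controls, and their part in the Cxcl17 values was not tested.

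The ligands of Cxcr2, which attract neutrophils, varied more within the shST3GAL3 group than between groups. Cxcl2 stood at 13.57, 11.37 and 14.20 TPM in the controls and at 103.04, 6.23 and 21.03 TPM in shST3GAL3 tumours. Cxcl3 stood at 110.25, 95.01 and 126.31 TPM and then at 235.01, 52.30 and 111.90 TPM. For both, shST3GAL3 1 was the highest and shST3GAL3 2 the lowest of the 6 libraries, and the log2 fold changes of 0.87 (SE 0.87) and 0.02 (SE 0.49) became -0.15 and -0.51 without shST3GAL3 1. The sign of Cxcl3 also turned under all 3 other scalings, so neither gene has a stated direction. Aligned transcripts of Cxcl2 and Cxcl3 were 90.7% identical over 550 bases, so reads may have been shared between them. Cxcl1 ranged from 0.57 to 4.49 TPM and Cxcl5 from 1.11 to 7.52 TPM, each highest in shST3GAL3 1 (0.69, SE 0.43 and 0.83, SE 0.46). Cxcr2 itself stood at 5.63, 5.70 and 5.66 TPM and then at 5.87, 1.67 and 4.23 TPM. The controls were nearly equal, and shST3GAL3 2 and 3 were below them while shST3GAL3 1 was above (-0.54, SE 0.33). Cxcr1, the sister receptor, was at most 0.27 TPM. The 7 neutrophil markers summed to between 577 and 740 TPM in shControl and between 552 and 677 TPM in shST3GAL3 tumours, with none at 0, and Mmp9 alone held 326 to 621 TPM of that sum. In shST3GAL3 1, S100a8, S100a9, Mmp8, Retnlg and Csf3r had their highest value of the 6 libraries, and Mmp9 and Ly6g their lowest. Ly6g was low throughout, from 0.23 to 2.01 TPM, and was not tested. Mmp8 was the only 1 of the 7 without overlap, and their part in these values was not tested.

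In shST3GAL3 3 Cxcl16 was above the controls and its receptor Cxcr6 below them. Cxcl16, a membrane-bound ligand of macrophages and dendritic cells, stood at 57.76, 49.29 and 46.52 TPM in the controls and at 127.61, 83.40 and 59.33 TPM in shST3GAL3 tumours, without overlap (log2 fold change 0.74, SE 0.26). Cxcr6, a receptor of tissue-resident T cells, stood at 6.50, 4.40 and 4.11 TPM and then at 7.97, 8.84 and 3.53 TPM. It was above the controls in 2 tumours and below them in shST3GAL3 3 (0.32, SE 0.32). Cx3cl1, the membrane-bound fractalkine, stood at 63.38, 62.01 and 53.02 TPM and then at 44.79, 74.73 and 66.37 TPM. The control range lay above shST3GAL3 1 and below shST3GAL3 2 and 3, and the log2 fold change of 0.03 (SE 0.19) turned sign under 2 other scalings. Its receptor Cx3cr1, of monocytes and macrophages, stood at 5.09, 7.36 and 4.68 TPM and then at 8.41, 6.77 and 5.44 TPM, with overlap (0.23, SE 0.21).

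Ccr7, which leads dendritic cells and naive T cells to lymph nodes, stood at 4.19, 7.08 and 4.01 TPM in the controls and at 16.50, 5.16 and 6.85 TPM in shST3GAL3 tumours (log2 fold change 0.67, SE 0.40). Only shST3GAL3 1 was above the controls. Its ligand Ccl21a followed another order, at 2.44, 1.47 and 12.29 TPM and then 3.52, 28.23 and 16.05 TPM (1.44, SE 0.85). Ccl21a was thus highest in shST3GAL3 2, and shControl 3 exceeded shST3GAL3 1. The transcript of Ccl21b is 99.5% identical to that of Ccl21a over 402 bases, so the split between them is uncertain, and Ccl21b ranged from 0 to 2.09 TPM. The 4 lymphatic endothelial markers, of a cell type known to make Ccl21, summed to 10.5, 5.59 and 10.9 TPM and then to 87.4, 23.0 and 14.9 TPM, with none at 0. Pdpn made up most of that sum (74.29 TPM in shST3GAL3 1), and Pdpn, Lyve1 and Flt4 were highest in shST3GAL3 1. Prox1, too low to be tested, stood at 0.06, 0.02 and 0.16 TPM and then at 0.13, 0.32 and 0.19 TPM, the same order of libraries as Ccl21a. The part of these markers in the Ccl21a values was not tested. Ccl19, the other ligand, ranged from 0.12 to 2.12 TPM and was not tested.

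Ccl17 and Ccl22, dendritic cell and macrophage ligands of the T cell receptor Ccr4, showed no common direction. Ccl17 stood at 15.94, 36.53 and 12.40 TPM in the controls and at 53.82, 5.87 and 8.47 TPM in shST3GAL3 tumours. The mean of TPM was 1.05 times the control mean while the log2 fold change was -0.42 (SE 0.81), and that sign turned without shControl 2 or shST3GAL3 2. Ccl22 stood at 10.27, 31.44 and 10.16 TPM and then at 20.68, 13.37 and 11.79 TPM, and its log2 fold change of -0.01 (SE 0.44) was 0.50 without shControl 2. In both genes shControl 2 was the highest control. The 7 dendritic cell markers, among which is the member Ccr7, summed to 48.1, 50.7 and 37.2 TPM and then to 83.6, 72.7 and 55.3 TPM, with none at 0 and 3 of 7 without overlap, and their part was not tested. Ccr4 was low, between 0.14 and 0.68 TPM, and was not tested.

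Ccl24, the second eotaxin and a ligand of the eosinophil receptor Ccr3, was the most abundant chemokine of the controls by mean. It stood at 709.98, 566.28 and 253.86 TPM in the controls and at 708.05, 705.01 and 547.41 TPM in shST3GAL3 tumours (log2 fold change 0.47, SE 0.37). The lowest value was that of shControl 3, while shControl 1 was as high as any shST3GAL3 tumour. Ccr3 ranged from 0.74 to 3.98 TPM, and its log2 fold change of 0.32 (SE 0.41) became -0.06 without shST3GAL3 1. Of 5 eosinophil and mast cell markers, the eosinophil granule gene Epx was listed at 0 in all 6 libraries. Siglecf, of the same list, stood at 1.33, 1.74 and 1.08 TPM and then at 3.13, 1.97 and 0.73 TPM, with overlap (0.23, SE 0.33). The 4 tested markers of the list had positive log2 fold changes, 1 of them without overlap. Their part in the Ccr3 values was not tested. Xcl1, which T and NK cells make to attract cross-presenting dendritic cells, stood at 4.2, 4.3 and 3.29 TPM and then at 14.76, 7.17 and 3.39 TPM (0.75, SE 0.43), with shST3GAL3 3 inside the control range. The receptor of Xcl1, Xcr1, lies outside the name rule and ranged from 0.74 to 2.19 TPM (0.16, SE 0.27).

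Of the other tested ligands, Ccl25 stood at 4.81 ± 0.574 TPM in the controls and 4.90 ± 0.483 TPM in the shST3GAL3 tumours, and Ccl27a at 2.55 ± 0.415 and 3.85 ± 1.35 TPM (SD, n = 3 each). The log2 fold change of Ccl25 (0.02, SE 0.14) turned sign under median-ratio scaling and quantile normalization. Of the 17 genes not tested, 3 (Ccl26, Ccl21d and Ccl27b) were listed at 0 in all 6 libraries, and the transcript of Ccl27b is 99.3% identical to that of Ccl27a over 425 bases. The other 14 reached at most 3.14 TPM, the value of Cxcl13, the B cell attractant, in shST3GAL3 1. Cxcl13 stood at 0.23, 0.88 and 0.44 TPM and then at 3.14, 1.65 and 0.58 TPM, and its receptor Cxcr5 at 1.15, 0.02 and 0.07 TPM and then at 1.46, 0.67 and 0.15 TPM. The 6 B and plasma cell markers summed to 1.67, 2.46 and 1.02 TPM and then to 145, 15.5 and 2.15 TPM, with Cd79a and Ms4a1 among those listed at 0 in some libraries, and their part was not tested. Ccr9, a gut-homing receptor, stood at 0.12, 0.14 and 0.46 TPM and then at 0.63, 0.61 and 0.52 TPM. Ccl20 and its receptor Ccr6 stayed at or below 0.51 and 1.66 TPM, Ccr10 and its ligand Ccl28 at or below 0.96 and 0.08 TPM, Cxcl15 at or below 0.47 TPM and Ccr1l1 at or below 0.31 TPM.

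**Figure D3:**
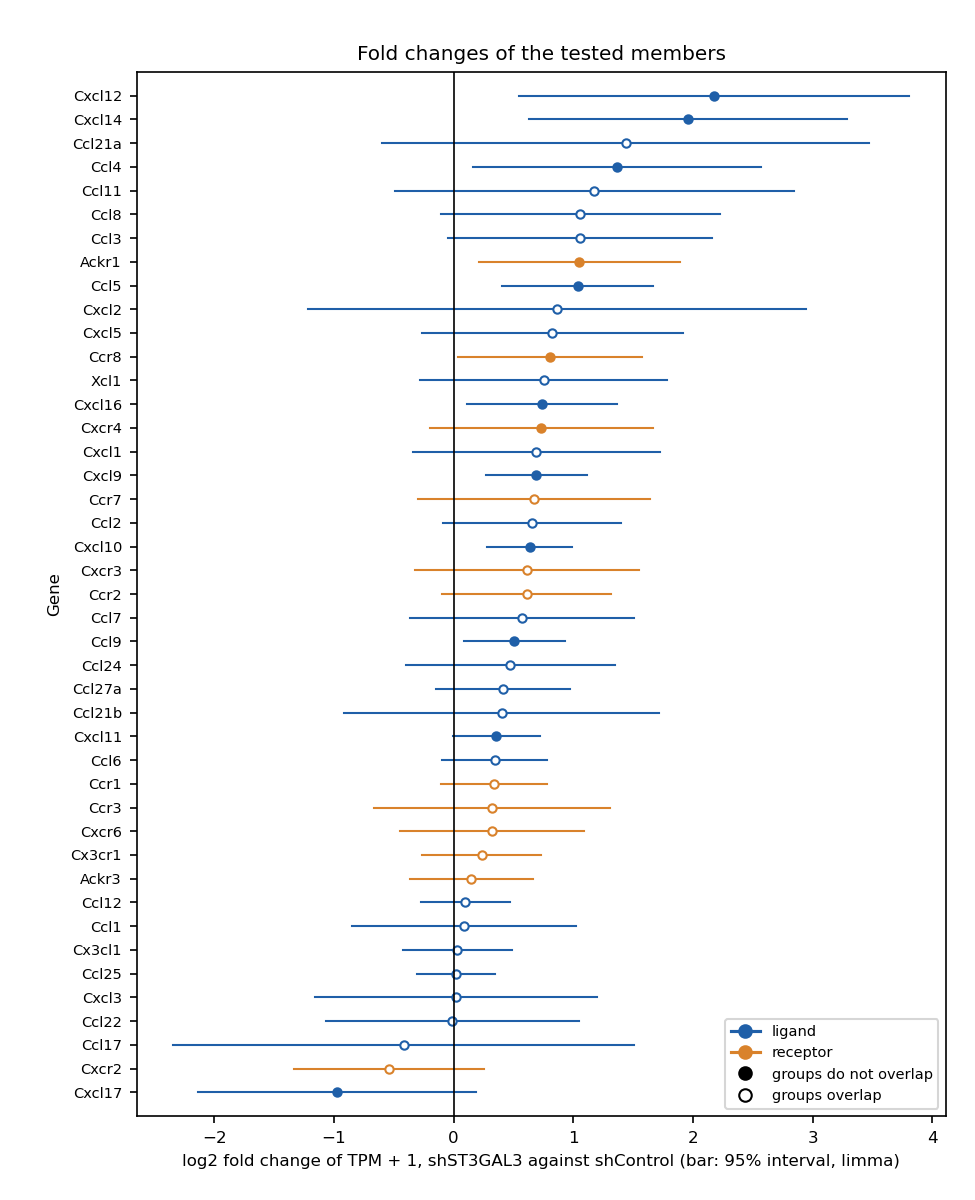
Log2 fold changes on the log2(TPM + 1) scale with 95% intervals (limma) for tested members, ligands in blue and receptors in orange, filled where the groups do not overlap. Cxcl12 and Cxcl14 lie at the top (2.17 and 1.96) and Cxcl17 at the bottom (-0.98), and 0 passed the test over all genes.

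Ligands and receptors were then matched over 18 receptors, or pairs of receptors, with listed ligands, with the ligands of each receptor summed in TPM. For 15 of the 18 both the receptor and its ligand sum had higher means in the shST3GAL3 tumours, and 12 did without shST3GAL3 1. Since 41 of the 44 tested members had a higher mean TPM, a high count of pairs was to be had from that alone. No such counts were made for pairs of other genes, so the pair counts here have no background. The 15 include Ccr6 with Ccl20, Cxcr5 with Cxcl13 and the receptors Ccr9 and Ackr4, all too low to be tested. Ligands were summed by a list that holds the main receptors of each and not every known binding, and a ligand listed for several receptors counts for each, so the 18 are not independent. For Cxcr4 both sides lay above the control range. The ligand sum alone did so for 4 (Ccr1, Cxcr3, Cxcr6 and Ackr3) and the receptor alone for 2 (Ccr8 and Ccr9, the latter below 1 TPM in all libraries). For Cxcr4 the ligand mean was 7.04 times and the receptor mean 1.94 times that of the controls, and without shST3GAL3 1 they were 3.08 and 1.20 times. The exceptions among the means were the ligands of Ccr4 (0.977 times), the pair Cxcr1 and Cxcr2 (0.712 times, while their ligands were 1.45 times, and 0.787 times without shST3GAL3 1) and Ccr10 (0.553 times, under 1 TPM).

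**Figure D4:**
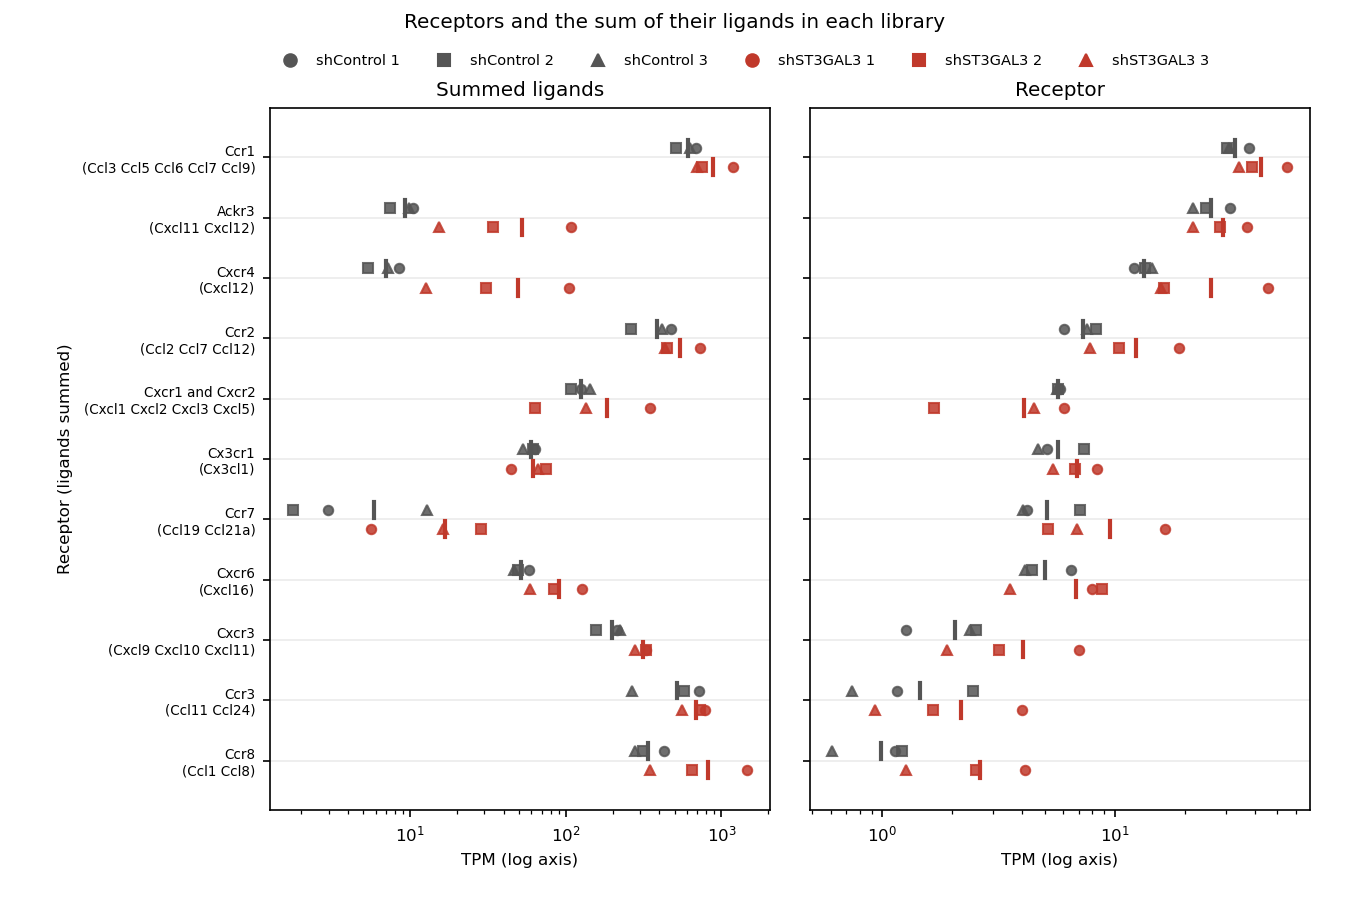
TPM (log axes) of receptors or receptor pairs on the right and the sum of their ligands on the left, for each library, with the group means as vertical bars. For Cxcr4 the shST3GAL3 points lie right of the shControl points on both sides, for Cxcr3 on the ligand side.

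Since leukocyte markers were also higher, each tested member was divided by the summed TPM of the 5 leukocyte markers of its own library. On this scale 26 of the 44 had a higher and 18 a lower mean in the shST3GAL3 tumours, with a median fold of 1.06, against a median fold of 1.57 for TPM. The groups then did not overlap for 4 members above (Ackr1, Ccl5, Cxcl12 and Cxcl14) and 3 below (Ackr3, Cxcl17 and Cxcr2), where TPM gave 13 and 1. Among the 4, Ackr1 had passed the filter only through its shST3GAL3 values. Divided by the fibroblast markers in place of the leukocyte markers, 5 of the 44 had a higher and 39 a lower mean, with a median fold of 0.569, and the groups did not overlap for 0 above and 15 below. The share over all genes was not made on either of these scales, so the counts cannot be set against a background. Per 1000 TPM of leukocyte markers, Ccl5 stood at 88.1, 84.3 and 99.7 in shControl 1, 2 and 3 and at 137, 142 and 109 in shST3GAL3 1, 2 and 3. Cxcl10 stood at 177, 126 and 200.1 and then at 136, 173 and 230.1, and Cxcl9 at 158, 127 and 196 and then at 149, 194 and 185, so both overlapped. Cxcr2 was lower in all 3 shST3GAL3 tumours, at 8.92, 9.29 and 10.2 and then 5.13, 1.90 and 6.40. Ackr3 on this scale stood at 49.9, 40.2 and 39.3 and then at 32.5, 32.3 and 32.9. A ratio to other genes shows unequal change and not which side changed, and all 44 ratios of a library share their denominator.

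**Figure D5:**
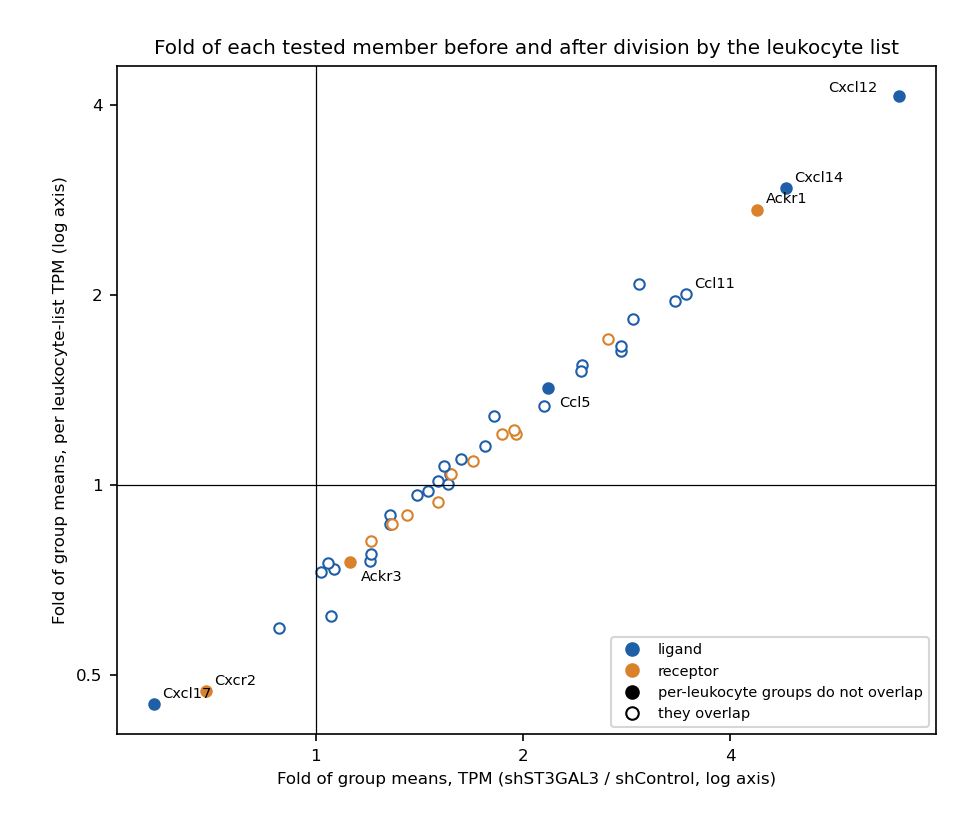
Fold of group means (shST3GAL3 over shControl, log axes) of the 44 tested members in TPM on the x axis and per leukocyte-marker TPM on the y axis, filled where the latter groups do not overlap. The filled points are Cxcl12, Cxcl14, Ackr1 and Ccl5 above 1 and Ackr3, Cxcr2 and Cxcl17 below 1.

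Several members lie near each other in the genome, in runs with at most 5 other protein-coding genes between neighbours in the gene order of RefSeq on GRCm38.p6. The run Ccl5, Ccl9, Ccl6, Ccl3 and Ccl4 had 5 of 5 positive log2 fold changes with a median of 1.04 and no overlap for 3. The run Ccl2, Ccl7, Ccl11, Ccl12, Ccl8 and Ccl1 had 6 of 6 positive with a median of 0.61 and no overlap for 0. In both runs every gene was highest in shST3GAL3 1. The neighbours Ccl22, Cx3cl1 and Ccl17 had 1 of 3 positive, with a median of -0.01. Other runs are not described here. Over all genes tested, 52.7% were positive, 15.7% lay above the controls without overlap and 28.7% were highest in shST3GAL3 1. Of the 44 tested members, 40 were positive, 13 lay above without overlap and 33 were highest in shST3GAL3 1. The run counts therefore do not show that neighbours moved together.

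Most genes of chemokine signalling and migration had positive fold changes as well. Of 33 such genes 32 were tested, and 0 passed over all genes. Of the 32, 27 were positive (median log2 fold change 0.34), against 52.7% of all genes tested. At an unadjusted p under 0.05, 8 of the 32 were higher (background 9.19%) and 0 were lower (background 3.78%). For 12 of the 32 all shST3GAL3 values lay above the controls (background 15.7%), and for 0 they lay below (background 7.76%). Rac2, the leukocyte form of the Rac GTPases, stood at 31.47, 30.65 and 34.47 TPM in the controls and at 123.80, 76.99 and 45.78 TPM in shST3GAL3 tumours, without overlap (log2 fold change 1.21, SE 0.33). The myeloid kinase gene Fgr (0.43, SE 0.12) and Rgs16 (0.81, SE 0.29), which shortens G protein signals, were also without overlap. Of the related genes outside the name rule, 5 of 6 were tested and all 5 were positive. Cmklr1, the chemerin receptor, had the smallest p (0.68, SE 0.23), the platelet chemokine genes Ppbp (0.65, SE 0.36) and Pf4 (0.47, SE 0.35) were highest in shST3GAL3 1, and Ccrl2 (0.49, SE 0.37) and Xcr1 overlapped between groups. Pf4 and Ppbp are themselves platelet markers, and the platelet gene Itga2b ranged from 1.49 to 3.59 TPM with overlap between the groups.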

How the data were processed

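RNA sequencing of 6 HM1 tumours, 3 shControl and 3 shST3GAL3 grouped by their titles, was deposited as 1 table per library. The deposited values are TPM with 2 decimals, as judged from their sums of 999999 to 1000001, and a gene length stands beside each. Tools named in the submitters' processing notes are fastp, HISAT and RSEM, without versions, and the build named there is GRCm39. Annotation, parameters and the use of strand were not given in the sources used here. TPM is relative to the library total and keeps no depth, so no counting interval or detection floor is given and precision rests on 3 libraries a group.

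Genes with at least 1 TPM in 3 or more libraries (14207) were fitted by limma 3.58.1 (R 4.3.3) on log2(TPM + 1), using the group alone and a trend of variance on mean. Calls were made at a Benjamini-Hochberg adjusted p under 0.05. The fit was tested on simulated data. Members, ligand lists, marker lists and naming rules were chosen with earlier results of these data known. The named genes were tested members, grouped by receptor, the signalling genes with the smallest p, and markers beside a member. Promoters were matched by symbol, and member transcripts of GENCODE M21 (GRCm38) were compared with blastn 2.17.0. Sums, ratios and motifs are descriptions without a test. Alternatives were other pseudocounts, filters and scalings, library weights, no trend, the replicate number as a block and leaving out each library. Division by fibroblast markers and the pairs without shST3GAL3 1 were added after the data were seen. Some genes are not reported here, while counts over all members include every tested gene.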

Additional observations from a re-analysis of the deposited data

How the results depend on the processing

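Over 17 alternatives, 0 members and 0 of the signalling and related genes passed in any fit (limma), and the smallest adjusted p of a member was 0.089 (Ccl5, without shST3GAL3 3). At an unadjusted p under 0.05 the count of 11 higher members was 17 with the replicate block, where the smallest adjusted p of a member was 0.332. It was 16 with library weights, and 4 to 21 when a library was left out. The share over all genes was 9.73% with the block, 12.9% with the weights and 4.41% to 12.7% without a library. Lower members numbered 1 with the block and 3 with the weights, where 566 and 686 of all genes were lower. Deviations of same-numbered libraries from their group means had r = 0.014, -0.08 and 0.04 for numbers 1, 2 and 3. For differently numbered libraries r ranged from -0.123 to 0.128. With group means of only 3 libraries, these values cannot show whether the numbers pair the samples. The block left 1 gene called over all genes. That 1 gene became 8 with library weights, 2 with a pseudocount of 0.5 or 0.1 or without the trend, and 1 to 3 without a library. The log2 fold change of St3gal3 (-0.80, adjusted p = 0.348) was -0.89 with library weights, where it passed (adjusted p = 0.0337). The share of higher genes among all at an unadjusted p under 0.05 was 70.8%, and 51.2% with median-ratio scaling, 47.8% with quantile normalization.

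The sign of 34 of the 44 members held in every fit that tested them. For the other 10 it turned in 30 of 752 fitted values. With quantile normalization Ccl1 was -0.041, Ccl25 -0.094, Cx3cl1 -0.004 and Cxcl3 -0.031, and with median-ratio scaling Ccl25 was -0.0081, Cx3cl1 -0.0065 and Cxcl3 -0.017. With library weights Ccl12 was -0.019, Cxcl2 -0.34 and Cxcl3 -0.67, and Cxcl3 was -0.006 once genes of mitochondria, ribosomal proteins and immunoglobulins were taken out. When each library was left out in turn, the log2 fold change ranged from -0.041 to 0.33 for Ackr3, -0.21 to 0.53 for Ccl1, -0.056 to 0.21 for Ccl12, -1.34 to 0.16 for Ccl17, -0.27 to 0.50 for Ccl22 and -0.035 to 0.10 for Ccl25. It ranged from -0.056 to 0.63 for Ccr3, -0.12 to 0.24 for Cx3cl1, -0.15 to 1.77 for Cxcl2 and -0.51 to 0.56 for Cxcl3. The cause of these turns was not tested. Depth is unknown, so what the low genes could have shown cannot be given.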
